A study of Mus musculus with 6 samples.

Results

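RNA levels of 10 genes of the canonical Wnt pathway were followed across 3 lines of E14TG2a, an established mouse embryonic stem cell line: a METTL3 knockout line made by CRISPR/Cas9 disruption of the gene (KO, 2 libraries), a line in which CRISPR/Cas9 integration changed METTL3 to D395A (D395A, 2 libraries) and unmodified cells (WT, 2 libraries). METTL3 is the enzyme that places N6-methyladenosine, or m6A, on messenger RNA, and the substitution lies in its catalytic motif. All lines were kept in the serum-free medium N2B27. The members were chosen by symbol (Sp5, Lef1, Notum, Fzd7, Axin2, Tcf7, Tcf7l1, Wnt8a, Lgr5 and Ctnnb1), and all 10 were found among the 24984 gene symbols counted. The labels speak of 1 line per genotype and name no separate clones, and nothing says that the 2 libraries of a line came from separate cultures. The p-values below therefore measure only the spread between these libraries, and genotype cannot be told apart from the history of a line.

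Canonical Wnt signalling is read through β-catenin. A secreted Wnt ligand binds a Frizzled receptor and its coreceptor, which stops a cytoplasmic complex built on Axin from marking β-catenin for destruction, and β-catenin then joins DNA-binding proteins of the TCF/LEF family at target genes. Several targets encode brakes on the pathway, among them Axin2, which rebuilds the destruction complex, and Notum, a secreted enzyme that removes the lipid from Wnt ligands. In mouse embryonic stem cells the family member TCF7L1 acts mainly as a repressor, and release of that repression by β-catenin is known to favour self-renewal.

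Gene counts totalled between 22859491 (D395A replicate 1) and 40476809 (WT replicate 1) per library. Levels are given as CPM, read counts relative to the library total after scaling by the trimmed mean of M-values (TMM), and 1 count was worth 0.0246 to 0.0426 CPM. Mettl3 itself stood at 7.82 and 6.17 CPM in KO, 21.1 and 23.4 CPM in D395A, and 28.5 and 31.6 CPM in WT. Of 12 embryonic stem cell markers, all were above 1 CPM in every line, and their summed level was 6720 and 6782 CPM in KO, 2817 and 3005 CPM in D395A, and 5922 and 5936 CPM in WT. In D395A 10 of these markers fell and 1 rose, whereas 8 of 10 tested neuroectoderm markers rose and 2 fell, with a summed level of 143 and 128 CPM in D395A, against 54.4 and 53.3 CPM in WT. The summed level of neuroectoderm markers in KO was 52.8 and 57.0 CPM. Primitive streak and mesoderm markers summed to 20.2 and 22.6 CPM in KO, 28.3 and 30.5 CPM in D395A, and 26.5 and 23.2 CPM in WT. Most of the D395A sum was Foxa2, at 20.2 and 22.5 CPM in D395A, against 0.0738 and 0.138 CPM in WT, whereas Eomes fell to 1.75 and 1.64 CPM in D395A, against 14.1 and 13.3 CPM in WT. Of 8 tested genes of that list 2 rose and 3 fell in D395A, with a median log2 fold change of -1.03. Trophoblast markers summed to 125 and 119 CPM in KO, 91.3 and 89.7 CPM in D395A, and 116 and 118 CPM in WT. Of 9 tested trophoblast markers 5 rose and 2 fell in D395A, and of the 12 listed Tpbpa and Prl3d1 were at 0 counts in all libraries. Extraembryonic endoderm markers summed to 447 and 453 CPM in KO, 162 and 183 CPM in D395A, and 449 and 435 CPM in WT. In D395A 4 of 11 tested rose and 5 fell. Fibroblast markers summed to 176 and 191 CPM in KO, 272 and 287 CPM in D395A, and 229 and 226 CPM in WT. In D395A 5 of 9 tested rose and 4 fell. Of those that rose, Col3a1, Dcn and Acta2 passed the filter on low counts only through their D395A libraries. Twist2, which also rose, had 53 and 0 counts in D395A. Among the fibroblast markers Fbln1 rose to 151 and 159 CPM, against 59.4 and 55.8 CPM in WT. Vim fell to 102 and 111 CPM, against 141 and 142 CPM in WT. Germline markers summed to 67.7 and 65.7 CPM in KO, 268 and 229 CPM in D395A, and 332 and 356 CPM in WT. Most of the D395A sum was Stra8, at 199 and 162 CPM in D395A, against 25.2 and 24.9 CPM in WT. It was the 1 germline marker of 8 tested that rose in D395A, whereas 6 fell. Genes that passed the filter through 1 line alone are among the tested markers of several lists, so these counts of rises and falls are a description. A lower or higher level in these bulk libraries cannot separate fewer cells of a type from less RNA per cell, and the part of other cell types in the results below was not tested.

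The promoters shown here belong to the targets and the receptor that rose in D395A and were matched by symbol in RefSeq promoters (GRCm38.p6, 7 of 10 members matched), each covering 250 bases before to 50 bases after the start of transcription on the gene's strand. They are printed to show how unequally the recognition letters of TCF/LEF proteins are spread over these windows. The genes did not move alike. In D395A Sp5 rose 33.4-fold and Axin2 1.19-fold, a call that was lost under some alternative settings. In KO Sp5 and Fzd7 rose while Lef1 and Axin2 fell. Capitals mark CTTTG, the core of the TCF/LEF consensus, on either strand, extended to CTTTGAT where the longer consensus is complete. The windows are chr2:70474673-70474972 for Sp5, chr3:131110047-131110346 for the first of 4 RefSeq starts of Lef1, chr1:59481897-59482196 for Fzd7 and chr11:108920099-108920398 for Axin2, all on the plus strand.

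Sp5: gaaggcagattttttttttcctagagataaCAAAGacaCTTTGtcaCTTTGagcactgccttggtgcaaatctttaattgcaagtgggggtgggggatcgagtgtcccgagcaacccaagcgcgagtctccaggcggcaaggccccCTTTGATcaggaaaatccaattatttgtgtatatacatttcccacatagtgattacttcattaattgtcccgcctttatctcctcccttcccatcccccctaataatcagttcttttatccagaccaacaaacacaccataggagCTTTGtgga

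Lef1: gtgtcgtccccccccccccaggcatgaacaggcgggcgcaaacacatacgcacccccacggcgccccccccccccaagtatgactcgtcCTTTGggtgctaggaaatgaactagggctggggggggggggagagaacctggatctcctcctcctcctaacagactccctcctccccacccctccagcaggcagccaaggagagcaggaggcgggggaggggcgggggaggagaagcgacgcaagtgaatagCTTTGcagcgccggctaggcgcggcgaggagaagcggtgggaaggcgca

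Fzd7: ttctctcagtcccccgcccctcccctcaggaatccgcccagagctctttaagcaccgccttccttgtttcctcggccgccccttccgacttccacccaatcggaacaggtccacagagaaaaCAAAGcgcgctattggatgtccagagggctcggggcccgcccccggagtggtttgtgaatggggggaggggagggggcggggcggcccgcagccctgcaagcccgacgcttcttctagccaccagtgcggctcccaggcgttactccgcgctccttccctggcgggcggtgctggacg

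Axin2: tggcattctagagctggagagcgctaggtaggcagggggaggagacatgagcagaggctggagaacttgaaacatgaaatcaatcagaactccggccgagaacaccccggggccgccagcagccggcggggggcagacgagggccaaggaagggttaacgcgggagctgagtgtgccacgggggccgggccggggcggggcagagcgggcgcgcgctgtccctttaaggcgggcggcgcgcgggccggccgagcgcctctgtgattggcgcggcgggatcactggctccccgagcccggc

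The Sp5 window held CTTTGAT once, beginning 104 bases upstream of the start, and CTTTG (either strand, the longer match included) 5 times. Among 32851 promoters of the same length, 3.73% held CTTTGAT or its reverse complement ATCAAAG, 53.9% held CTTTG or its reverse complement CAAAG at least once, and 94 promoters (0.286%) held as many as Sp5 or more. Lef1 held CTTTG 2 times in the window shown, Fzd7 1 time and Axin2 0 times, and CTTTGAT was found in none of these 3 windows. Tcf7l1 held CTTTG 1 time, while Tcf7 and Ctnnb1 held it in none of their windows. The GC box GGGCGG, the kind of site that SP-family proteins bind, was searched on both strands as well. It was found 7 times in Fzd7, 2 times in Axin2, 1 time in Lef1 and 0 times in Sp5, and 35.7% of all promoters held it at least once. These matches describe letters in a short window, and enhancers were not searched.

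Sp5 is a zinc-finger transcription factor and one of the most direct Wnt targets known in mammalian cells. It stood at 51.4 and 59.7 CPM in KO, 509.9 and 452 CPM in D395A, and 15.8 and 12.9 CPM in WT. No library of one line reached into the range of another. The level rose in both mutant lines, 3.86-fold in KO (log2 fold change 1.95 ± 0.11 SE, edgeR quasi-likelihood test with Benjamini-Hochberg adjustment, adjusted p = 9.8e-09) and 33.4-fold in D395A (5.06 ± 0.11, adjusted p = 5.6e-12), and D395A exceeded KO by 3.11 ± 0.10 on the log2 scale (adjusted p = 1.7e-10). Per kilobase of exon, Sp5 held 229 ± 19.7 CPM in D395A, against 6.83 ± 0.971 CPM in WT (SD, n = 2 each). That level lay above 99.2% of tested genes in D395A, and the level in WT lay above 61.7%. In D395A it was the highest of the 10 members per kilobase, ahead of Ctnnb1, while its order among them was 4 in KO and 5 in WT. Sp5 lies on the plus strand of chromosome 2 (GRCm38, 70474923 to 70477729), with no annotated exon on the other strand over its exons.

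Lef1 and Notum moved in opposite directions in the mutant lines. Lef1 encodes a TCF/LEF family protein that is itself a Wnt target. Its level was 0.597 and 0.691 CPM in KO, 17.2 and 19.4 CPM in D395A, and 4.77 and 3.91 CPM in WT. The raw counts behind the low values were 21 and 24 in KO, against 194 and 142 in WT. Lef1 fell in KO (-2.75 ± 0.20, adjusted p = 1e-07) and rose 4.21-fold in D395A (2.07 ± 0.14, adjusted p = 3.8e-08), and the 2 mutant lines stood 28.3-fold apart. Notum, the secreted carboxylesterase that inactivates Wnt ligands, had 3.47 and 3.31 CPM in KO, 56.1 and 52.2 CPM in D395A, and 13.9 and 13.7 CPM in WT. It fell by 2.02 ± 0.10 on the log2 scale in KO (adjusted p = 3.6e-09) and rose by 1.97 ± 0.08 in D395A (adjusted p = 3.3e-10). The direct test of D395A against KO gave 4.82 ± 0.18 for Lef1 and 3.99 ± 0.09 for Notum. Both thus ranked KO, WT, D395A from low to high, with no overlap between libraries of different lines. Lef1 lies on chromosome 3 (131110471 to 131224356, plus strand) and Notum on chromosome 11 (120653788 to 120661175, minus strand). Exons of other genes on the opposite strand cover 13.7% of the exon bases of Lef1 and 38.1% of those of Notum, and since the strand setting of the counting is not given in the sources used here, their counts may include reads of those genes.

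**Figure D1:**
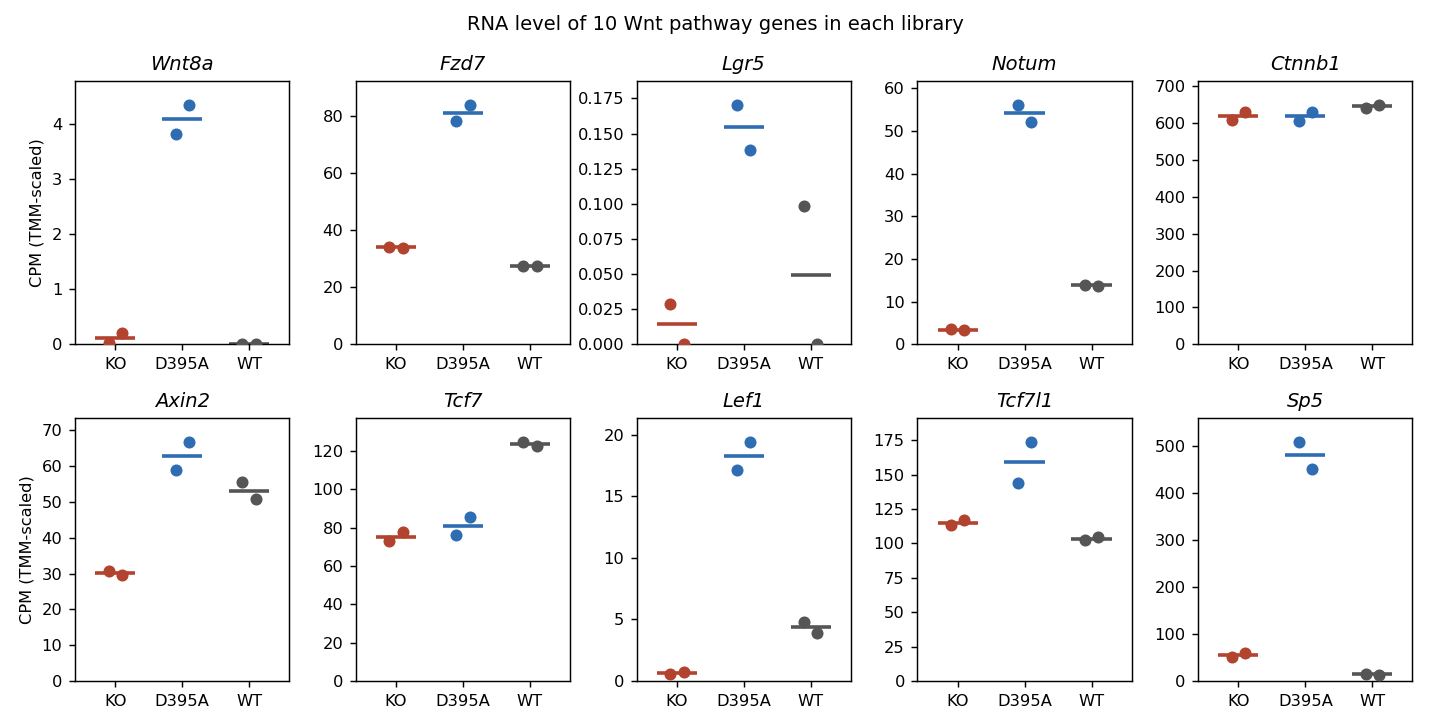
RNA level of each member in the 6 libraries (TMM-scaled CPM, linear axes from 0, 1 point per library, bar at the mean of 2). Sp5, Notum, Lef1 and Wnt8a stand highest in D395A, Lef1 and Notum lowest in KO, and Ctnnb1 lies between 606 and 649.7 CPM in all libraries.

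Axin2, the scaffold that restrains β-catenin and the customary readout of canonical Wnt signalling, changed far less than Sp5. Its levels were 30.8 and 29.5 CPM in KO, 58.8 and 66.9 CPM in D395A, and 55.6 and 50.7 CPM in WT. The KO libraries were lowest and apart from the rest, whereas the D395A and WT libraries were separated by a narrow gap. Axin2 fell in KO by 0.82 ± 0.08 (adjusted p = 1.3e-06), and its rise in D395A was 1.19-fold (0.25 ± 0.08, adjusted p = 0.012). The rise in D395A did not pass without D395A replicate 2 (0.14, adjusted p = 0.14), without WT replicate 2 (0.18, adjusted p = 0.15) or with TMM factors from genes outside chromosomes 8, 11 and Y (0.16, adjusted p = 0.066). D395A stood above KO by 1.06 ± 0.08 (adjusted p = 2.4e-07). Axin2 lies on the plus strand of chromosome 11 (108920349 to 108950783).

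Chromosome 11 holds 3 of the members, Axin2, Notum and Tcf7, and its genes were lower as a whole in both mutant lines. The median log2 fold change of 1302 tested genes there was -0.42 in KO and -0.49 in D395A, against 0.01 and 0.02 over all genes. Measured from the chromosome's own median, Axin2 differed by -0.40 in KO and by 0.73 in D395A, and Notum by -1.61 in KO and by 2.46 in D395A. Tcf7 differed from it by -0.30 in KO and by -0.13 in D395A, and 32.9% of the chromosome's tested genes lay below Tcf7 in KO and 42.7% in D395A. What part the chromosome has in these values was not tested.

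Among the DNA-binding effectors, Tcf7 fell in both mutant lines and Tcf7l1 rose in D395A. Tcf7, which encodes TCF1 and acts mostly as an activator with β-catenin, had 72.8 and 77.7 CPM in KO, 76.0 and 85.3 CPM in D395A, and 125 and 123 CPM in WT. The mutant libraries overlapped with each other and all lay under both WT libraries. The fall was -0.72 ± 0.07 in KO (adjusted p = 1.3e-06) and -0.61 ± 0.07 in D395A (adjusted p = 4.9e-06). D395A and KO differed by 0.10, with a 95% interval of -0.05 to 0.26. Tcf7l1, the repressor of the family, had 114 and 117 CPM in KO, 144 and 174 CPM in D395A, and 103 and 104 CPM in WT. It rose 1.54-fold in D395A (0.62 ± 0.08, adjusted p = 1.9e-05), and D395A exceeded KO by 0.47 ± 0.08 (adjusted p = 4.1e-04). The difference between KO and WT was 0.15 ± 0.08 (adjusted p = 0.11, 95% interval -0.02 to 0.33), and it passed under 5 of 16 alternative settings. The 2 D395A libraries of Tcf7l1 were the farthest apart among its pairs. Gm15401, whose exons overlap 4.56% of the exon bases of Tcf7l1 on the other strand, had 80 and 5 counts in KO, 153 and 178 in D395A, and 16 and 17 in WT, small beside the 3374 or more counts of Tcf7l1 in each library. Tcf7 lies on chromosome 11 (52252371 to 52283014) and Tcf7l1 on chromosome 6 (72626378 to 72789254), both on the minus strand. Tested genes of chromosome 6 had a median log2 fold change of 0.24 in D395A against KO. Measured from that median, Tcf7l1 differed by 0.23, and 62.0% of the chromosome's tested genes lay below it. What part the chromosome has in this difference was not tested.

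Set side by side per kilobase of exon, the 4 genes of the TCF/LEF family changed in proportion. Tcf7l1 made up 48.9% and 47.7% of the family's summed level in KO, 52.7% and 54.7% in D395A, and 34.6% and 35.5% in WT. Tcf7 made up 46.8% and 47.4% in KO, 41.7% and 40.1% in D395A, and 62.9% and 62.3% in WT. Per kilobase of exon, the WT libraries therefore held more Tcf7 than Tcf7l1 RNA and the D395A libraries more Tcf7l1 than Tcf7. The KO libraries held nearly equal amounts on this scale, whereas their mean CPM was 115 for Tcf7l1 and 75.3 for Tcf7. Lef1 stayed a minor part, at 0.115% and 0.126% in KO, 2.81% and 2.73% in D395A, and 0.718% and 0.594% in WT. Tcf7l2, the remaining family member, took 4.22% and 4.79% in KO, 2.75% and 2.43% in D395A, and 1.71% and 1.65% in WT, and it rose by 1.12 ± 0.10 in KO and 0.62 ± 0.10 in D395A. The summed level itself was 59.2 and 62.4 CPM per kilobase in KO, 69.4 and 81.0 in D395A, and 75.6 and 75.0 in WT. Exon length was taken over all annotated transcripts of a gene, so these shares assume the same transcripts in each line. The comparison of 1 gene with another also rests on these lengths.

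**Figure D2:**
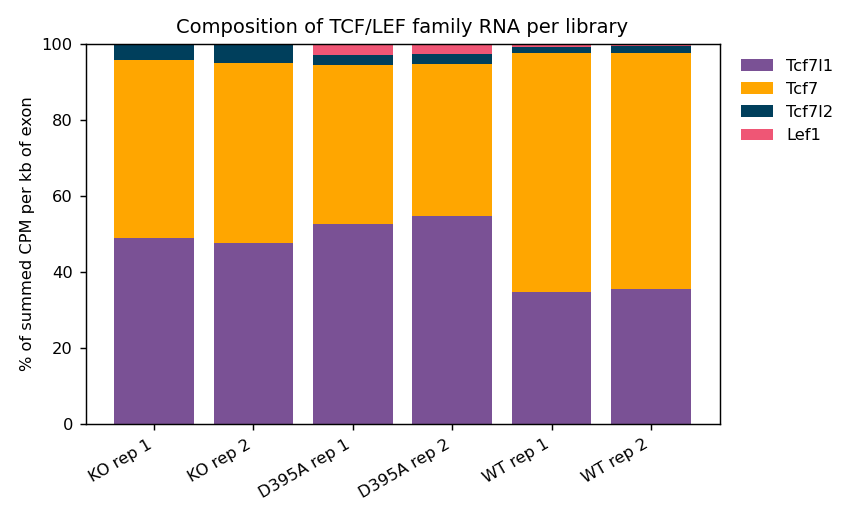
Share of each TCF/LEF family gene in the family's summed level (percent of CPM per kilobase of exon, 1 stacked bar per library). Tcf7l1 takes 47.7% to 54.7% in the KO and D395A libraries and 34.6% to 35.5% in the WT libraries.

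Fzd7, a Frizzled receptor well known from embryonic stem cells, rose in both lines. Its level was 33.9 and 33.8 CPM in KO, 78.0 and 83.7 CPM in D395A, and 27.4 and 27.2 CPM in WT. The 3 lines did not overlap, with D395A far above the others. The rise was 2.96-fold in D395A (1.57 ± 0.07, adjusted p = 6.5e-10) and 1.24-fold in KO (0.31 ± 0.07, adjusted p = 0.0014), and D395A exceeded KO by 1.26 ± 0.07 (adjusted p = 9.2e-09). Fzd7 lies on the plus strand of chromosome 1 (59482424 to 59486955).

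Wnt8a, a secreted ligand best known from the early primitive streak, was found mostly in D395A, with 90 and 157 counts (3.83 and 4.35 CPM). KO held 1 and 7 counts and WT held 0 in both libraries. Against a floor of 3 counts over the WT libraries (0.0390 CPM), the pooled Wnt8a level was 106-fold in D395A and 2.94-fold in KO. The ratio to WT had an exact 95% lower limit of 85.9 in D395A and 1.88 in KO (counting error only). D395A held 36.2 times the pooled level of KO (exact 95% interval 18.1 to 84.9, counting error only), and the test of D395A against KO passed (5.12 ± 0.61, adjusted p = 2.7e-05). The call in KO (adjusted p = 0.013) was lost without KO replicate 2, which held 7 of the 8 counts (adjusted p = 0.18), and without WT replicate 1 (adjusted p = 0.053). Wnt8a passed the filter on low counts only through its D395A libraries. The gene lies on the plus strand of chromosome 18 (34542313 to 34548273).

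Lgr5, the R-spondin receptor known as a stem cell marker of intestine and a Wnt target there, was at the limit of detection in all lines. It had 1 and 0 counts in KO, 4 and 5 in D395A, and 4 and 0 in WT, and did not pass the filter on low counts. The pooled ratio of D395A to WT was 2.91 with an exact 95% interval of 0.812 to 12.9, and that of KO to WT was 0.275 with an interval of 0.00559 to 2.78. A difference between either mutant line and WT was therefore not detectable at this depth. D395A held 10.6 times the pooled level of KO (exact interval 1.46 to 463), while the edgeR test without the filter gave an adjusted p of 0.20. Lgr5 lies on the minus strand of chromosome 10 (115450311 to 115587780).

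Ctnnb1, the gene of β-catenin, gave nearly the same RNA level in all libraries. It had 609 and 632 CPM in KO, 606 and 632 CPM in D395A, and 642 and 649.7 CPM in WT. No comparison passed, with differences of -0.057 in KO (95% interval -0.20 to 0.08), -0.062 in D395A (-0.20 to 0.08) and -0.0043 between D395A and KO (-0.14 to 0.13). The protein, whose stability carries the signal, was not measured. Ctnnb1 lies on chromosome 9 (120929216 to 120960507, plus strand), and exons of Ulk4 on the other strand overlap 14.6% of its exon bases.

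Counted together, 9 of the 10 members could be tested. In KO against WT 3 rose (Sp5, Fzd7 and Wnt8a) and 4 fell (Lef1, Notum, Axin2 and Tcf7), beside 66.2% of all 15663 tested genes changed, 33.6% higher and 32.6% lower. In D395A against WT 7 rose and 1, Tcf7, fell, beside 70.3% changed, 36.3% higher and 34.0% lower. D395A against KO gave 7 members higher and 0 lower by the edgeR test, beside 50.4% changed, 26.5% higher and 23.8% lower. At an unadjusted p under 0.05, and by DESeq2 and limma-voom, the number lower was also 0. Leaving out Wnt8a, the counts were 2 higher and 4 lower in KO, 6 higher and 1 lower in D395A, and 6 higher and 0 lower in D395A against KO, over 8 genes. The median log2 fold change of those 8 genes was -0.39 in KO and 1.09 in D395A, against 0.01 and 0.02 over all genes tested. At least 2-fold, 1 of these 8 genes rose and 2 fell in KO, beside 13.7% and 10.6% of all genes, 4 rose and 0 fell in D395A, beside 17.0% and 12.0%, and 5 were higher and 0 lower in D395A against KO, beside 8.38% and 7.56%. The comparisons with WT share the same WT libraries and are not independent.

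**Figure D3:**
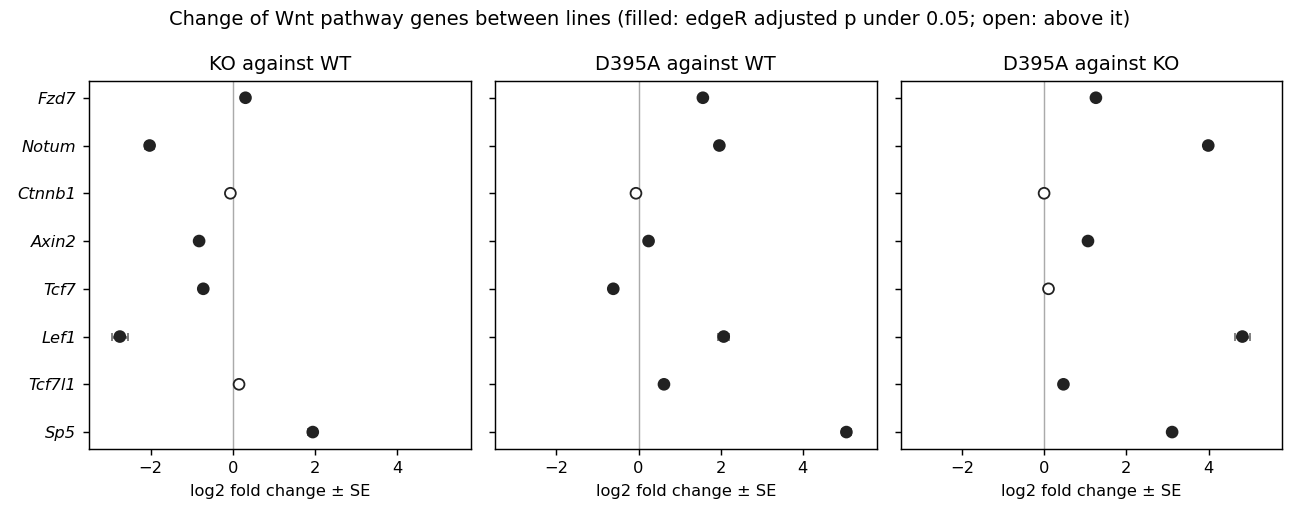
Log2 fold change ± SE of 8 members, with KO against WT on the left, D395A against WT in the middle and D395A against KO on the right (filled points pass an adjusted p of 0.05 in the edgeR test). Lef1, Notum and Axin2 lie left of 0 in KO and right of 0 in D395A, while Sp5 lies right of 0 in all 3 panels.

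Over the wider pathway, 131 symbols in 6 lists by role were examined beside the members, of which 113 were tested. In KO 40 rose and 29 fell, and in D395A 54 rose and 25 fell. Their median log2 fold change was 0.23 in KO and 0.32 in D395A. The risen share was thus 35.4% in KO and 47.8% in D395A, beside the 33.6% and 36.3% of all genes given above. Genes that passed the filter on low counts through 1 line alone are among those tested, so these shares are a description.

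Among 15 tested genes for ligands and for the machinery that secretes them, 6 rose and 2 fell in KO, beside 33.6% of all genes higher and 32.6% lower. In D395A 7 rose and the other 8 did not pass, beside 36.3% higher and 34.0% lower, and the same shares over all genes stand behind the counts of the lists that follow. Of those that rose in D395A, Wnt6, Wnt10b and Wnt2b passed the filter on low counts only through their D395A libraries. The counts of this list are therefore a description. Wls, the carrier that takes Wnt ligands to the cell surface, had 29.6 and 30.6 CPM in KO, 72.5 and 75.3 CPM in D395A, and 6.91 and 6.04 CPM in WT, a rise of 2.21 ± 0.09 and 3.51 ± 0.08. Porcn, the enzyme that adds the lipid that Notum removes, fell in KO by 1.08 ± 0.15 (4.04 and 5.65 CPM in KO, against 10.5 and 10.1 CPM in WT) and stood at 12.8 and 11.8 CPM in D395A (adjusted p = 0.11). The ligand gene Wnt6 stood in D395A at 3.75 and 3.02 CPM, against 0.148 and 0.193 CPM in WT. It passed the filter on low counts only through its D395A libraries, so this difference is a description. Wnt9a rose in KO (1.54 ± 0.35) and D395A (1.50 ± 0.36), with 0.615 and 0.882 CPM in WT.

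Of 16 tested receptor genes, 7 rose and 2 fell in KO, and 9 rose and 2 fell in D395A. Fzd2, another Frizzled receptor, reached 135 and 131 CPM in D395A and 14.0 and 15.8 CPM in KO, against 8.06 and 7.03 CPM in WT. Its log2 fold change was 4.13 ± 0.09 in D395A and 0.98 ± 0.10 in KO, and it lies on chromosome 11. Ror2, a receptor of β-catenin-independent Wnt signalling, rose in both (1.30 ± 0.06 in KO and 1.33 ± 0.07 in D395A). The related Ror1 had 0.512 and 0.922 CPM in KO, 3.11 and 4.38 CPM in D395A, and 0.197 and 0.110 CPM in WT, and it rose by 2.18 ± 0.52 in KO and 4.57 ± 0.49 in D395A.

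Inhibitors moved both ways. In KO 3 of 18 tested rose and 5 fell, and in D395A 7 rose and 8 fell. Sfrp1, a secreted decoy for Wnt ligands, rose in KO to 152 and 153 CPM and was 42.8 and 44.8 CPM in D395A, against 49.5 and 51.4 CPM in WT. The change was 1.60 ± 0.06 in KO and -0.20 ± 0.06 in D395A. Sfrp1 lies on chromosome 8, whose tested genes had a median of -0.48 in KO and -0.35 in D395A. What part the chromosome has in these values was not tested. The related Sfrp2 fell in KO (-0.63 ± 0.12) and rose in D395A (1.72 ± 0.11). Sfrp5 fell in D395A by 3.38 ± 0.57. Trabd2b, a membrane protease that cleaves Wnt ligands, stood in D395A at 3.83 and 4.57 CPM, against 0.123 and 0.110 CPM in WT. It passed the filter on low counts only through its D395A libraries, so this difference is a description. Shisa2 rose in KO by 1.23 ± 0.12. Igfbp4 and Sfrp4, both able to oppose Wnt signalling, fell in KO by 1.81 ± 0.11 and 1.39 ± 0.25, and Igfbp4 lies on chromosome 11.

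Genes of the destruction complex and Dishevelled had medians near 0. Of 24 tested genes, 6 rose and 11 fell in KO, and 9 rose and 6 fell in D395A, with medians of -0.01 and 0.06. Frat2, which binds GSK3 and keeps it from β-catenin, rose in D395A to 6.26 and 6.93 CPM, against 1.82 and 1.98 CPM in WT (1.80 ± 0.20). Rnf146, the ubiquitin ligase that removes Axin after tankyrase has marked it, rose there by 1.27 ± 0.07, and 76.8% of its exon bases overlap exons on the other strand.

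Among 22 tested nuclear effectors and corepressors, 15 rose and 4 fell in KO, which is 68.2% and 18.2% beside 33.6% and 32.6% of all genes. In D395A 12 rose and 7 fell, which is 54.5% and 31.8% beside 36.3% and 34.0%. The coactivator Bcl9l had 72.1 and 79.3 CPM in KO, 84.2 and 94.0 CPM in D395A, and 31.2 and 34.0 CPM in WT, a rise of 1.22 ± 0.08 and 1.45 ± 0.08. Pygo1, which BCL9 proteins bind, rose by 1.40 ± 0.14 in D395A. The corepressor Tle2 rose by 1.68 ± 0.31 in KO, with 2.73 and 2.97 CPM there, against 0.787 and 0.992 CPM in WT, and Tle6 fell by 1.18 ± 0.14 in D395A.

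Other known targets of the pathway were split. Of 24 tested, 3 rose and 6 fell in KO, and 12 rose and 3 fell in D395A. T (Brachyury), a direct target and the classical gene of the primitive streak, fell in both lines, with 0.227 and 0.0864 CPM in KO, 0.0852 and 0.222 CPM in D395A, and 4.89 and 3.36 CPM in WT. The changes were -4.68 ± 0.50 in KO and -4.62 ± 0.51 in D395A, on 11 counts in KO, 10 in D395A and 321 in WT. T passed the filter on low counts only through its WT libraries, so these changes are a description. Gbx2, a homeobox gene of embryonic stem cells, followed Lef1 and Notum, with a fall of 1.49 ± 0.11 in KO (3.53 and 4.35 CPM) and a rise of 2.18 ± 0.09 in D395A (51.3 and 48.9 CPM), against 11.3 and 10.8 CPM in WT, and a gene on the other strand covers 43.5% of its exon bases. Cdx2, a caudal homeobox gene, stood in D395A at 3.11 and 2.72 CPM, against 0.123 and 0.0551 CPM in WT. It passed the filter on low counts only through its D395A libraries, so this difference is a description. Sp8, another SP-family factor, rose in D395A to 7.11 and 5.93 CPM, against 0.688 and 0.717 CPM in WT (3.21 ± 0.31). Cd44 and Msx2 rose in both lines and more in KO, by 4.46 ± 0.20 and 3.80 ± 0.18 in KO and by 2.25 ± 0.23 and 2.66 ± 0.19 in D395A.

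**Figure D4:**
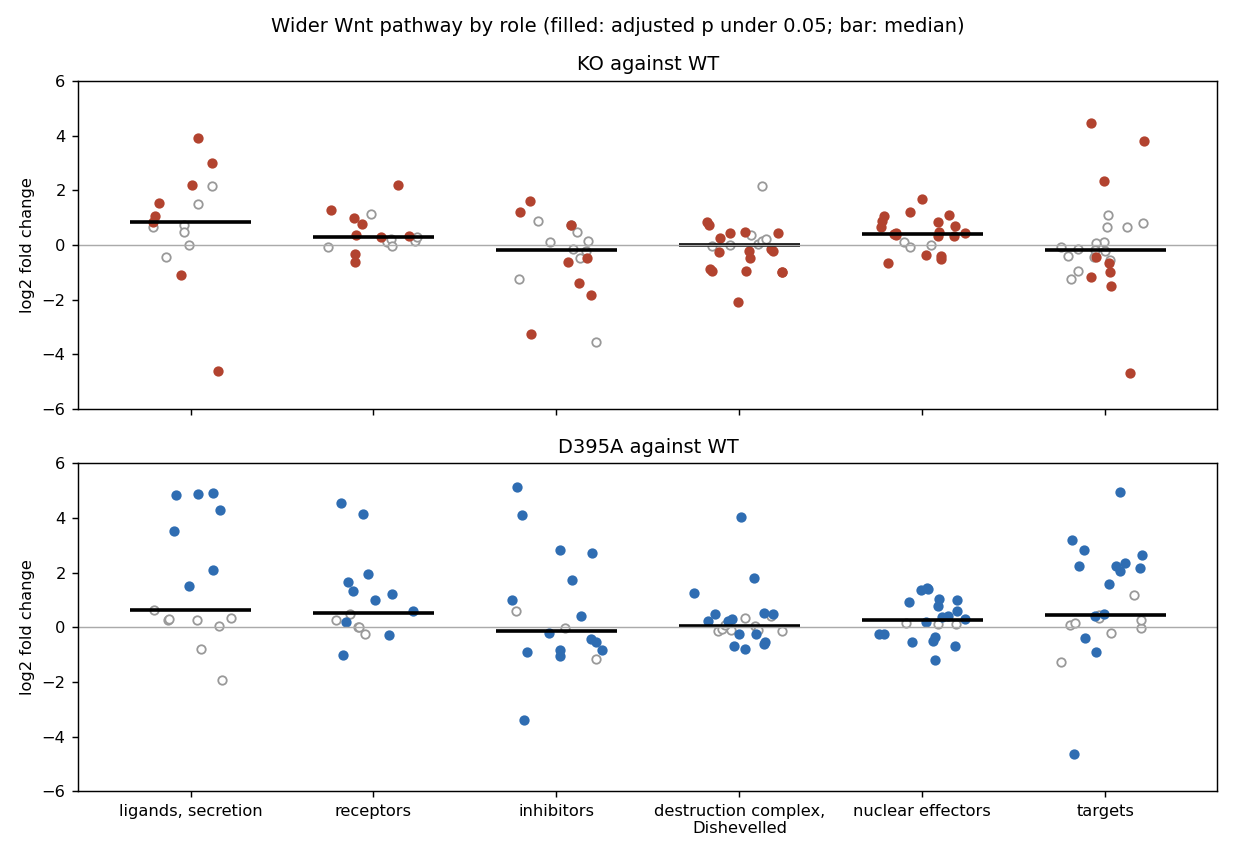
Log2 fold change of 113 tested genes of the wider pathway by role, in KO against WT (upper panel) and D395A against WT (lower panel), 1 point per gene and list, filled where adjusted p is under 0.05, with a bar at the list's median. Fitted values of genes with few counts in 1 line depend on the fit and are no bounds. The list medians lie between -0.20 and 0.84 in KO and between -0.12 and 0.63 in D395A.

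A short list of 9 genes known as repressed by TCF7L1 in mouse embryonic stem cells, which holds Lef1 and Axin2 too, gave 2 higher and 4 lower in KO, and 4 higher and 5 lower in D395A. The share changed in KO, 66.7%, was near the 66.2% of all genes, and all 9 changed in D395A, beside 70.3% of all genes. In D395A Nanog fell to 441 and 470.3 CPM, against 931 and 909.9 CPM in WT (-1.01 ± 0.07), Tfcp2l1 fell by 1.12 ± 0.08 and Esrrb by 0.46 ± 0.08, but Klf2 rose by 0.96 ± 0.07. In KO Nanog rose by 0.78 ± 0.07 and Klf2 by 1.78 ± 0.07, and the differences of Esrrb (0.14 ± 0.08, adjusted p = 0.13) and Tfcp2l1 (0.13 ± 0.08, adjusted p = 0.18) did not pass.

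Genes with the most similar profile over the 6 libraries were sought by the root mean square difference of log2 CPM after centring each gene, among 13049 other genes with a mean of at least 1 CPM. For Sp5 they were Slc35f1 (0.21), Acnat1 (0.22) and Zfp703 (0.29). In WT Slc35f1 had 0.295 and 0.165 CPM, and Acnat1 had 0.0246 and 0.0276 CPM, under the 0.05 CPM added before taking log2. Zfp703 had 10.3 and 11.4 CPM in KO, 61.4 and 54.1 CPM in D395A, and 2.19 and 1.87 CPM in WT. For Lef1 the most similar genes were Flt1 (0.34), Dppa3 (0.34) and Notum (0.36), so 1 of the 3 nearest genes was another member. For Axin2 they were Creb3l2 (0.03), Nespas (0.06) and Mta1 (0.07). Tcf7l1 lay nearest to Tab2, Spire1 and Aldh18a1 (0.04 to 0.05), and Fzd7 to Rarg, Fam120c and Mdk (0.09 each).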

How the data were processed

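The authors deposited 1 table of raw HTSeq read counts per gene symbol and library, made from rRNA-depleted total RNA in directional libraries per the labels. Trimmomatic 0.36, STAR 2.7 and HTSeq 0.11.2 and the build mm10 are named in the submitters' processing notes; annotation release and strand setting: not given in the sources used here. The summary lines of HTSeq, 29.0% to 44.2% of a table's total, were left out.

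Positions and exon lengths came from GENCODE M21 (GRCm38), in which 97.95% of symbols were found. The test was that of edgeR 4.0.16 under R 4.3.3 (low counts removed by filterByExpr, 15663 genes kept; TMM; quasi-likelihood F test; all 6 libraries in 1 model without covariates, 3 residual degrees of freedom), with p-values adjusted by Benjamini-Hochberg over all tested genes and a threshold of 0.05. Errors are SD over 2 libraries or SE of the fit. Intervals on low counts are exact (Clopper-Pearson) at 95% and, like the floor of 3 counts, cover counting error only. Replicates differed by more than sampling noise (chi-square per degree of freedom 3.19 to 11.1). The fit was tested on simulated data. DESeq2 1.42.0, limma-voom (limma 3.58.1), other scalings, filters, a replicate block and leaving out each library were tried.

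Members and lists were chosen with earlier results of these data known. Named beside the members were, per list and comparison with WT, at most the 2 largest rises and falls that passed at 2-fold and 1 CPM, Mettl3 as the check of the labels, and Nanog, Esrrb, Tfcp2l1 and Klf2. Tcf7l2, Gm15401, Tpbpa, Prl3d1, Col3a1, Dcn, Acta2, Twist2, Wnt10b and Wnt2b were named after their values were seen. Similarity used log2 of CPM plus 0.05.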

Additional observations from a re-analysis of the deposited data

Results flagged for a closer look

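For 7 members the mutant lines differed from each other by the test of D395A against KO itself (edgeR quasi-likelihood, adjusted over all genes). The log2 difference, D395A minus KO, was 3.11 for Sp5, 4.82 for Lef1, 3.99 for Notum, 1.26 for Fzd7, 1.06 for Axin2, 0.47 for Tcf7l1 and 5.12 for Wnt8a. Wnt8a passed the filter on low counts only through its D395A libraries, with 247 counts in D395A and 8 in KO, so its difference is a description. For Tcf7l1, the tested genes of its chromosome had a median of 0.24 in the same comparison. Of all tested genes, 26.5% were called higher in D395A than in KO. Sp5 stood apart from Lef1, Notum and Axin2 in that it rose in KO while they fell there.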

How the results depend on the processing

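Results were recomputed under 16 alternatives. Of 428 values of single members, 414 kept their direction and side of the threshold. Ctnnb1, never past the threshold, changed sign in D395A against KO with library totals only (0.053), without KO replicate 2 (0.018) and without D395A replicate 1 (0.026), within a range of -0.039 to 0.026 when 1 library was left out. The other exceptions concern Axin2 in D395A and Wnt8a in KO, given beside their values, Tcf7l1 in KO (5 settings, adjusted p from 0.0034) and Tcf7 in D395A against KO without D395A replicate 1 (0.18, adjusted p = 0.037). Members called ranged from 6 to 8 in KO, 7 to 8 in D395A and 6 to 8 in D395A against KO. The main fit tested 9 members, but the number tested was not the same in every setting. Without the filter on low counts Lgr5 was tested too, and the stricter filter left out Wnt8a. Leaving out 1 library each gave 6 to 8, 7 to 8 and 7 to 8 members, 8523 to 10682, 9398 to 11364 and 6918 to 7151 genes, and 60 to 70, 64 to 82 and 54 to 63 genes of the wider pathway. Same-numbered libraries did not deviate together (r = 0.01 for KO and WT, 0.01 for D395A and WT, -0.21 for D395A and KO, over genes). With the replicate number as a block, 10220 genes were called in KO and 10843 in D395A (both against WT), and 7832 between the mutant lines, with 7, 8 and 7 members, so the block changed no call of a member. Depth limits Lgr5 in all lines and Wnt8a in KO.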
